A study of Homo sapiens with 4 samples.

Results

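The genes described here encode the machinery that copies DNA and supplies its precursors, read in the RNA of human hepatocellular carcinoma (HCC) cells. There were 45 of them, chosen by symbol for their known roles, among 19225 entries of the deposited gene table. Their values were not used in the choice, but earlier results of these data were known when it was made. HCC-LM3, an HCC line with high metastatic potential, and Huh-7, a hepatoma line, carried the lentiviral hairpin sh-WDR4-2, directed against WDR4, or the control hairpin sh-NC. WDR4 encodes the partner subunit of METTL1 in the enzyme that places m7G on tRNA. The series held 4 libraries, 1 for each cell line and hairpin, so that no difference within a cell line had a replicate check. Per the study's methods, cells that took up virus were kept under puromycin as stable lines, which the labels do not state for each library. The labels give 48 h for every library.

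Several labels disagreed with each other or with the data. The treatment field gives a WDR4 transduction for the sh-WDR4-2 library of HCC-LM3 cells and an siWDR4 transfection for that of Huh-7 cells, and groups were taken from the source names. WDR4 itself had 1009 counts (31.6 CPM) with sh-WDR4-2 in HCC-LM3 cells, against 1604 counts (36.9 CPM) with sh-NC, and 990 counts (29.01 CPM) against 1077 counts (29.4 CPM) in Huh-7 cells. CPM stands for the count scaled to a common library size after TMM, a correction for unequal library composition. On the log2 scale WDR4 differed by -0.22 between the HCC-LM3 libraries (95% counting interval -0.34 to -0.11) and by -0.02 between the Huh-7 libraries (-0.15 to 0.11). Because WDR4 was little or not detectably lower, each library is meant as labelled wherever sh-WDR4-2 is written below. Library totals ranged from 29807047 to 40572251 counts, and the sh-WDR4-2 library of HCC-LM3 cells was the smallest and the only one on lane 4, where the others were on lane 3. Lane and hairpin cannot be told apart in HCC-LM3 cells. Of 8 hepatocyte markers, APOA1 (3962 and 5407 counts in HCC-LM3 cells, 3334 and 3582 counts in Huh-7 cells) and APOB (2869 and 4223 counts in HCC-LM3 cells, 3803 and 4035 counts in Huh-7 cells) had symbols out of the order of the table, described below, and which genes these counts belong to was not tested. ALB and TTR had 0 counts in all 4 libraries, and of the rest only HNF4A reached 1 CPM, with 4 and 8 counts in HCC-LM3 cells and 1980 and 2033 counts in Huh-7 cells. The sum without APOA1 and APOB was 0.313 and 0.483 CPM in HCC-LM3 cells and 58.1 and 55.6 CPM in Huh-7 cells, sh-WDR4-2 before sh-NC in each. The Huh-7 extraction is described for retinas in the labels, but the 6 photoreceptor markers summed to between 0.251 and 1.43 CPM.

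Replication starts where the MCM2 to MCM7 ring has been loaded onto DNA by the origin recognition complex, CDC6 and CDT1, a step that geminin (GMNN) blocks outside G1. CDC45 and the GINS complex then turn the ring into an active helicase, polymerase alpha-primase lays down primers, and polymerases epsilon and delta extend them on the leading and lagging strands while the sliding clamp PCNA, set in place by replication factor C, holds them to DNA. RPA coats the exposed single strands, FEN1 and LIG1 join Okazaki fragments, ribonucleotide reductase (RRM1 and RRM2), thymidylate synthase (TYMS) and thymidine kinase (TK1) provide deoxynucleotides, and CAF-1 and UHRF1 restore nucleosomes and DNA methylation behind the fork. Most of these genes are transcribed under E2F control and peak around S phase. In bulk libraries, fewer cells in S phase and less RNA per cell cannot be told apart.

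Of the 45 genes, 42 had a mean of at least 1 CPM and 3 subunits of the MCM ring were at or near 0. MCM2 had 6 counts in the HCC-LM3 sh-WDR4-2 library and 0 counts in the other 3, MCM3 had 2 counts in the Huh-7 sh-WDR4-2 library and 0 elsewhere, and MCM6 had 0 counts in all 4 libraries. The other ring subunits were among the most abundant genes of the set, with MCM7 at 154 and 152 FPKM in the sh-WDR4-2 and sh-NC libraries of HCC-LM3 cells and 234 and 228 FPKM in those of Huh-7 cells. FPKM, as deposited, divide fragments by library total and gene length and allow levels to be compared between genes.

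The 3 symbols near 0 also broke the order of the table. All but 231 of the 19225 entries (1.2% out of order) follow the order of a Python 2 dictionary, and the 42 genes at 1 CPM or more were all in order. Among all entries, 27 were symbols turned into dates. For MCM2, MCM3 and MCM6 the order points to exactly 1 other entry each, listed under ALDH1A1, AHSG and AGXT. In return, the order allows the symbols ALDH1A1 and AHSG at the entries listed as MCM2 and MCM3, but not AGXT at that listed as MCM6. The length implied by count and FPKM was 2369 bases for the entry listed as MCM2, within 0.1 on the log2 scale of an annotated MCM2 transcript of 2510 bases, and 1573 bases for MCM3, which no annotated MCM3 transcript matched, whereas MCM6 had no counts to give a length. The entries listed as ALDH1A1, AHSG and AGXT imply 3488, 3152 and 3787 bases, each within that tolerance of an annotated transcript of MCM2, MCM3 and MCM6. Lengths matched for 32 of the 42 genes in order, and how often an unrelated entry would match was not tested. The 3 symbols were left aside in all counts of measured values below, and whether the entries changed names was not tested further.

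Taken as the order places them, these entries would sit beside the other ring subunits. The entry listed as ALDH1A1 had 107 and 112 FPKM in the sh-WDR4-2 and sh-NC libraries of HCC-LM3 cells and 201 and 200.2 FPKM in those of Huh-7 cells. The entry listed as AHSG had 120.3 and 119 FPKM in HCC-LM3 cells and 106 and 105 FPKM in Huh-7 cells. The entry listed as AGXT had 66.3 and 64.8 FPKM in HCC-LM3 cells and 46.2 and 45.6 FPKM in Huh-7 cells. AGXT and AHSG are liver genes and ALDH1A1 a retinaldehyde dehydrogenase, and the highest to lowest ratio among the 6 entries was 2.33 and 2.34 for HCC-LM3 cells and 5.07 and 5.002 for Huh-7 cells. Their log2 fold changes, sh-WDR4-2 over sh-NC, ran from -0.07 to 0.03 in HCC-LM3 cells and from 0.01 to 0.02 in Huh-7 cells.

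Levels per length spanned from 8.44 FPKM for POLE2, an accessory subunit of polymerase epsilon, to 265 FPKM for RRM1, the large subunit of ribonucleotide reductase, as means of the 4 libraries. The median gene had 36.4 FPKM. Within complexes the subunits differed widely. POLD2, the second subunit of polymerase delta, averaged 159.5 FPKM where POLD3 of the same enzyme averaged 16.4 FPKM. PCNA averaged 191 FPKM and its loader subunits RFC1 to RFC5 between 20.4 FPKM for RFC1 and 47.6 FPKM for RFC4, with DSCC1, of the alternative loader that acts in sister chromatid cohesion, at 15.2 FPKM.

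GINS2 averaged 47.5 FPKM and GINS1, its partner in the same complex, 11.7 FPKM. RPA1 averaged 44.2 FPKM and RPA3, the smallest RPA subunit, 12.4 FPKM. In the licensing pair GMNN averaged 64.6 FPKM and CDT1, which it inhibits, 55.3 FPKM. MCM8, which works in recombination rather than in the ring, and MCM10, which helps activate the helicase, averaged 14.6 and 12.9 FPKM, below every ring subunit that was measured under its own symbol. These are levels of RNA per length with no test between genes, and the annotated lengths the authors used could not be matched for MCM4, GINS2, CDT1, PRIM2, POLD2, RFC3, RFC5, TK1, CHAF1B and CLSPN.

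**Figure D1:**
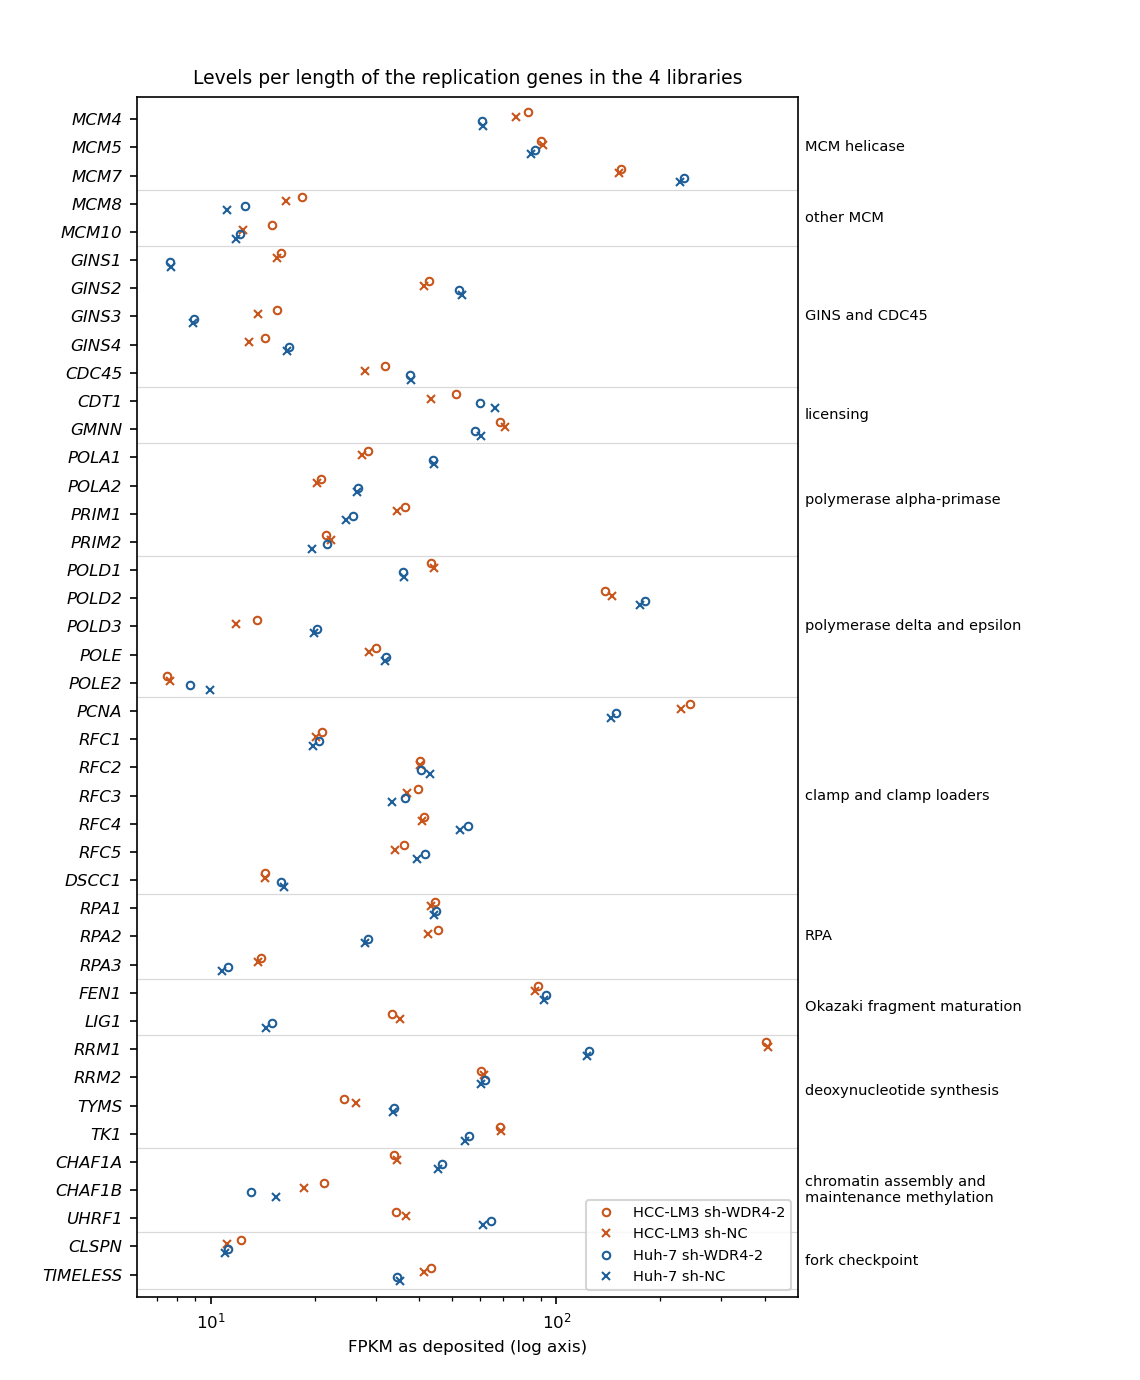
Deposited FPKM (x axis, log scale) of the 42 replication genes in order, grouped by role, with 1 symbol per library (circles sh-WDR4-2, crosses sh-NC, orange HCC-LM3, blue Huh-7). Levels run from POLE2, with a mean of 8.44 FPKM, to RRM1, with a mean of 265 FPKM, and RRM1 shows the widest gap between the cell lines.

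In HCC-LM3 cells, none of the 42 genes differed by more than 2-fold between the sh-WDR4-2 and sh-NC libraries, where 0.260% of the 12683 genes at 1 CPM or more did. The log2 fold changes ran from -0.11 (TYMS) to 0.28 (MCM10). Of the 42 genes, 28 were higher in the sh-WDR4-2 library (66.7%, against 48.9% of all genes) and 14 lower. Their median was 0.04 where the median of all genes was -0.00326. Exact counting intervals lay above 0 for 17 genes (40.5%, against 20.6% of all genes) and below 0 for 3 genes (7.14%, against 21.5% of all genes). All 42 genes had over 10 CPM, and among the 9831 genes of at least 10 CPM the corresponding shares were 21.0% and 24.8%. Such intervals hold counting error alone, without the spread between cultures. Reads copied by PCR are not separate molecules, which can narrow them further.

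In Huh-7 cells none of the 42 genes passed 2-fold, against 0.109% of 11971 genes, and the log2 fold changes ran from -0.23 (CHAF1B) to 0.17 (MCM8). The sh-WDR4-2 library was higher for 29 genes (69.0%, against 49.0% of all genes) and lower for 13. Their median was 0.03 against -0.00214 over all genes. Intervals lay above 0 for 8 genes (19.0%, against 15.0% of all genes) and below 0 for 4 genes (9.52%, against 15.1% of all genes). The summed level of the 42 genes was 5808 CPM with sh-WDR4-2 against 5674 CPM with sh-NC in HCC-LM3 cells, and 6015 CPM against 5927 CPM in Huh-7 cells. Pearson's r between the folds in HCC-LM3 and Huh-7 cells was -0.16 over the 42 genes, a description across genes of the same libraries.

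**Figure D2:**
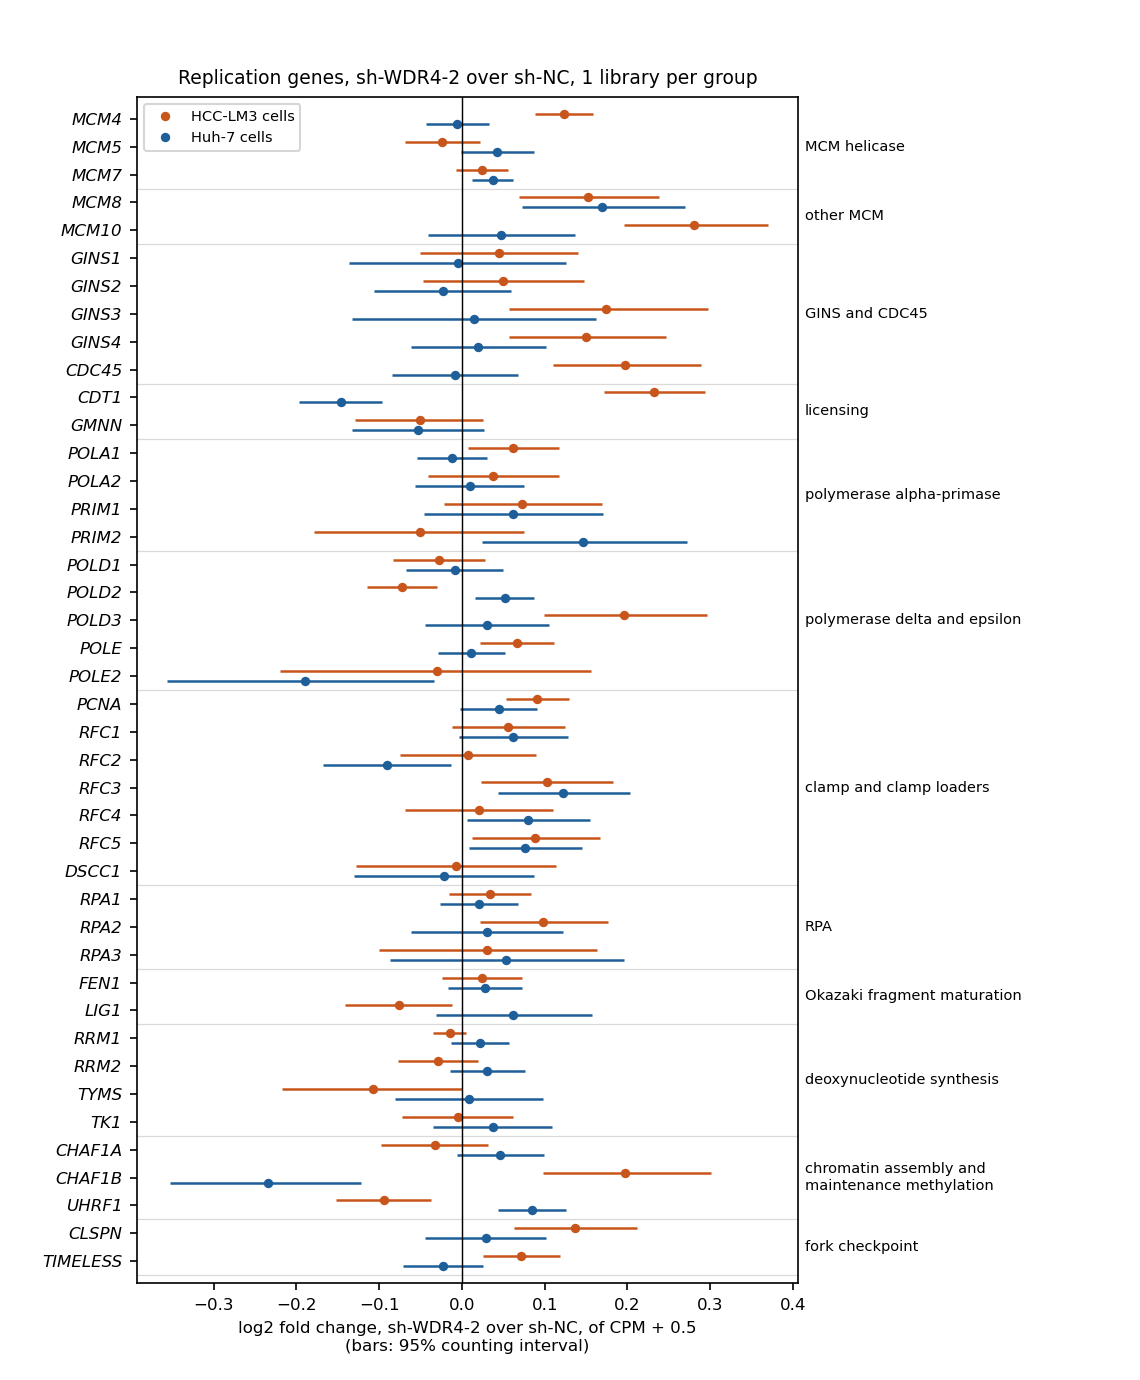
Log2 fold change of CPM with 0.5 added, sh-WDR4-2 over sh-NC (x axis), of each of the 42 genes in HCC-LM3 cells (orange) and Huh-7 cells (blue), with bars for the 95% counting interval. The points lie between -0.23 and 0.28, and CDT1, POLD2, CHAF1B and UHRF1 have intervals on opposite sides of 0 in the cell lines.

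**Figure D3:**
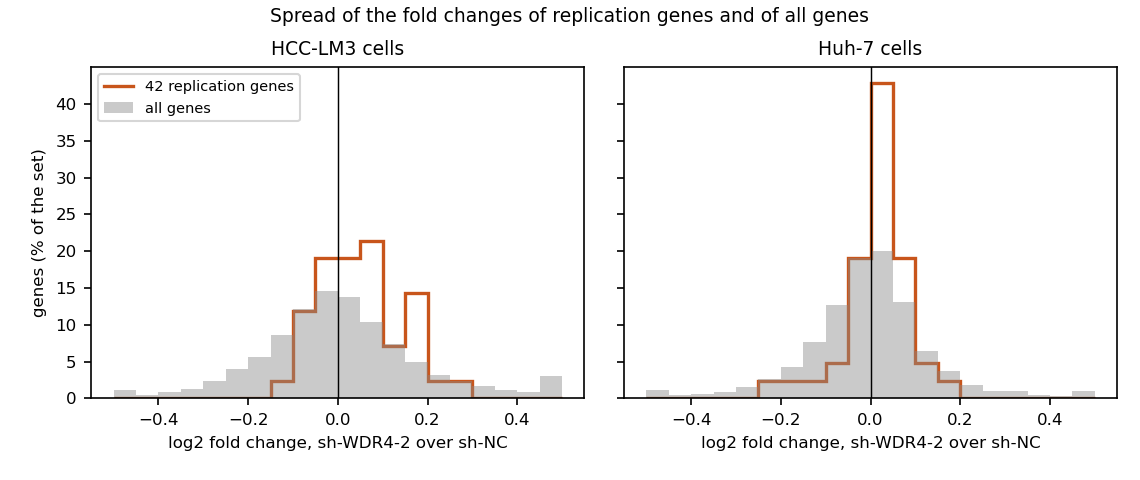
Share of genes (y axis, % of the set) by log2 fold change, sh-WDR4-2 over sh-NC (x axis, bins of 0.05, outer bins open), for the 42 replication genes (orange line) and all genes of at least 1 CPM (grey) in HCC-LM3 cells on the left and Huh-7 cells on the right. The replication genes stay within 0.28 of 0 in HCC-LM3 cells and within 0.23 in Huh-7 cells.

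The highest log2 fold change in HCC-LM3 cells was that of MCM10, followed by that of CDT1. MCM10 had 64.1 CPM with sh-WDR4-2 against 52.6 CPM with sh-NC in HCC-LM3 cells, and 59.4 CPM with sh-WDR4-2 against 57.5 CPM with sh-NC in Huh-7 cells. This is a log2 fold change of 0.28 in HCC-LM3 cells (0.20 to 0.37) and 0.05 in Huh-7 cells (-0.04 to 0.14). CDC45 had 58.6 CPM with sh-WDR4-2 against 51.0 CPM with sh-NC in HCC-LM3 cells, and 79.5 CPM with sh-WDR4-2 against 79.9 CPM with sh-NC in Huh-7 cells. It was higher with sh-WDR4-2 in HCC-LM3 cells by 0.20 on the log2 scale (0.11 to 0.29) and nearly equal in Huh-7 cells. Of the GINS genes, GINS3 was higher in HCC-LM3 cells at 0.17 (0.06 to 0.30) and GINS4 at 0.15 (0.06 to 0.25), whereas the intervals of GINS1 (0.04) and GINS2 (0.05) spanned 0 there, as did all 4 in Huh-7 cells. MCM8 was higher with sh-WDR4-2 in both cell lines, with 63.8 CPM with sh-WDR4-2 against 57.3 CPM with sh-NC in HCC-LM3 cells, and 50.1 CPM with sh-WDR4-2 against 44.5 CPM with sh-NC in Huh-7 cells. Its log2 fold changes were 0.15 in HCC-LM3 cells and 0.17 in Huh-7 cells.

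Of the ring subunits in order, MCM4 had a log2 fold change of 0.12 in HCC-LM3 cells (0.09 to 0.16) and -0.01 in Huh-7 cells. MCM7 had 435 CPM with sh-WDR4-2 against 428 CPM with sh-NC in HCC-LM3 cells, and 759 CPM with sh-WDR4-2 against 739 CPM with sh-NC in Huh-7 cells. MCM5 was at -0.02 in HCC-LM3 cells and 0.04 in Huh-7 cells, with both intervals spanning 0.

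In licensing, CDT1, which loads the ring, had 128 CPM with sh-WDR4-2 against 109 CPM with sh-NC in HCC-LM3 cells, and 172 CPM with sh-WDR4-2 against 191 CPM with sh-NC in Huh-7 cells. That gives a log2 fold change of 0.23 in HCC-LM3 cells (0.17 to 0.29) and -0.15 in Huh-7 cells (-0.20 to -0.10), intervals on opposite sides of 0. GMNN had 72.3 CPM with sh-WDR4-2 against 74.9 CPM with sh-NC in HCC-LM3 cells, and 70.4 CPM with sh-WDR4-2 against 73.1 CPM with sh-NC in Huh-7 cells, with both intervals spanning 0. The ratio of CDT1 to GMNN in FPKM was 0.745 with sh-WDR4-2 against 0.611 with sh-NC in HCC-LM3 cells, and 1.03 against 1.10 in Huh-7 cells.

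Among the polymerases, POLD3, POLA1 and POLE had intervals clear of 0 in HCC-LM3 cells alone, and PRIM2 and POLE2 in Huh-7 cells alone. POLD2 was at -0.0722 in HCC-LM3 cells (-0.11 to -0.03) and 0.05 in Huh-7 cells (0.02 to 0.09), on opposite sides of 0. POLD3, an accessory subunit of polymerase delta, had 48.6 CPM with sh-WDR4-2 against 42.4 CPM with sh-NC in HCC-LM3 cells, and 83.3 CPM with sh-WDR4-2 against 81.6 CPM with sh-NC in Huh-7 cells, a log2 fold change of 0.20 (0.10 to 0.30) and 0.03 (-0.04 to 0.10). PRIM2, the large primase subunit, had 27.2 CPM with sh-WDR4-2 against 28.3 CPM with sh-NC in HCC-LM3 cells, and 31.6 CPM with sh-WDR4-2 against 28.5 CPM with sh-NC in Huh-7 cells. Its interval spanned 0 in HCC-LM3 cells and ran from 0.02 to 0.27 in Huh-7 cells. POLE2 had 12.6 CPM with sh-WDR4-2 against 12.8 CPM with sh-NC in HCC-LM3 cells, and 16.8 CPM with sh-WDR4-2 against 19.2 CPM with sh-NC in Huh-7 cells, the lowest counts of the set, at 401 to 704 per library, and a log2 fold change of -0.19 in Huh-7 cells (-0.36 to -0.03). The catalytic subunits POLA1, POLD1 and POLE ran from -0.03 to 0.07 in HCC-LM3 cells and from -0.01 to 0.01 in Huh-7 cells. In HCC-LM3 cells the intervals of POLA1 (0.01 to 0.12) and POLE (0.02 to 0.11) lay above 0.

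Of the clamp and its loader, PCNA had 304 CPM with sh-WDR4-2 against 285 CPM with sh-NC in HCC-LM3 cells, and 213 CPM with sh-WDR4-2 against 206 CPM with sh-NC in Huh-7 cells, with a log2 fold change of 0.09 in HCC-LM3 cells (0.05 to 0.13) and 0.04 in Huh-7 cells (-0.00 to 0.09). RFC3 had 71.6 CPM with sh-WDR4-2 against 66.7 CPM with sh-NC in HCC-LM3 cells, and 75.4 CPM with sh-WDR4-2 against 69.2 CPM with sh-NC in Huh-7 cells. Both RFC3 intervals lay above 0, at 0.02 to 0.18 and 0.04 to 0.20, as did those of RFC5, and MCM8 was the only other of the 42 genes with intervals above 0 in both cell lines. None of the 42 genes had both intervals below 0. The share of all genes with both intervals on the same side of 0 was not counted. RFC2 ran the other way in Huh-7 cells, at -0.09 (-0.17 to -0.01). The log2 fold changes of the RPA subunits were positive in all 6 comparisons, at 0.02 (RPA1 in Huh-7 cells) to 0.10 (RPA2 in HCC-LM3 cells), with the RPA2 interval in HCC-LM3 cells alone above 0. RFC3, RFC5, PCNA, POLD2, RPA2, FEN1, RRM2 and TYMS have named pseudogenes that could share reads.

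Of the enzymes that make deoxynucleotides, RRM1, the most abundant gene of the set, had 1084 CPM with sh-WDR4-2 against 1095 CPM with sh-NC in HCC-LM3 cells, and 382 CPM with sh-WDR4-2 against 377 CPM with sh-NC in Huh-7 cells. RRM2, whose protein rises and falls with S phase, had 189 CPM with sh-WDR4-2 against 193 CPM with sh-NC in HCC-LM3 cells, and 222 CPM with sh-WDR4-2 against 218 CPM with sh-NC in Huh-7 cells. TYMS, which makes dTMP, had 36.0 CPM with sh-WDR4-2 against 38.8 CPM with sh-NC in HCC-LM3 cells, and 57.6 CPM with sh-WDR4-2 against 57.2 CPM with sh-NC in Huh-7 cells, a log2 fold change of -0.11 in HCC-LM3 cells (-0.22 to 0.00) that was the lowest there. TK1, the salvage kinase, was at -0.00492 in HCC-LM3 cells and 0.04 in Huh-7 cells. The log2 fold changes of all 4 were negative in HCC-LM3 cells and positive in Huh-7 cells, and all 8 intervals included 0. TYMS shares 39.1% of its exon bases with ENOSF1 on the opposite strand and RRM2 shares 20.2% with another annotated gene on its own strand, and whether the counting used strand is not given in the sources used here.

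Behind the fork, CHAF1B, a CAF-1 subunit, had 45.4 CPM with sh-WDR4-2 against 39.5 CPM with sh-NC in HCC-LM3 cells, and 32.1 CPM with sh-WDR4-2 against 37.8 CPM with sh-NC in Huh-7 cells, a log2 fold change of 0.20 (0.10 to 0.30) and -0.23 (-0.35 to -0.12). CHAF1A, its partner in CAF-1, was at -0.03 and 0.05, with both intervals spanning 0. UHRF1, which directs maintenance methylation, had 130.4 CPM with sh-WDR4-2 against 139 CPM with sh-NC in HCC-LM3 cells, and 282 CPM with sh-WDR4-2 against 266 CPM with sh-NC in Huh-7 cells, at -0.09 (-0.15 to -0.04) and 0.08 (0.04 to 0.13). LIG1, the ligase that seals Okazaki fragments, was lower in HCC-LM3 cells at -0.08 (-0.14 to -0.01) and at 0.06 in Huh-7 cells (-0.03 to 0.16). CLSPN and TIMELESS, which couple the fork to the checkpoint, were higher in HCC-LM3 cells at 0.14 and 0.07, with intervals spanning 0 in Huh-7 cells. Intervals on opposite sides of 0 in the cell lines were found for 4 of the 42 genes, CDT1, POLD2, CHAF1B and UHRF1, against 6.02% of the 11537 genes measured in both.

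To ask whether sh-WDR4-2 went with a difference in both cell lines, the counts were fitted with the cell line as a block. The fit leaves 1 residual degree of freedom, and its p-values measure the spread between these libraries only. None of the 42 genes was called at an adjusted p of 0.05 by edgeR's quasi-likelihood test, where 0.0158% (2 genes) of all 12693 genes were, and the lowest adjusted p among the 42 was 0.968. At an unadjusted p under 0.05 stood MCM8 and MCM10, 2 of 42, against 5.11% of all genes, and DESeq2 had 0 genes below that p. The common log2 fold changes were 0.16 for MCM8 (SE 0.07) and 0.17 for MCM10 (SE 0.08).

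The cell lines differed far more than the hairpins. In a fit with the hairpin label as covariate, 33 of the 42 genes (78.6%) differed between HCC-LM3 and Huh-7 cells at an adjusted p of 0.05, but so did 77.8% of all 12693 genes. This fit too leaves 1 residual degree of freedom. The 2 libraries of a cell line carry different hairpins, so its p-values measure the spread between these cultures only. Of the 42, 10 were higher in HCC-LM3 cells (23.8%, against 38.9% of all genes) and 23 were lower (54.8%, against 38.9% of all genes). The median difference, HCC-LM3 over Huh-7, was -0.19 on the log2 scale where that of all genes was 0.01. This balance depended on the scaling. With library totals alone, without TMM, all genes shifted by 0.20, and 16 of the 42 were higher and 16 lower, against 49.5% and 29.3% of all genes, so directions below are relative to the typical gene. That setting lost the calls of MCM5, RFC1, RFC2, DSCC1, RPA1, FEN1 and RRM2, all lower with TMM, and MCM10, GMNN, POLD1, RPA3, TK1 and TIMELESS were then called higher. Past 2-fold lay RRM1 and LIG1, both higher (2 genes, against 14.4% of all genes), and UHRF1, lower (1 gene, against 12.8% of all genes). LIG1 and UHRF1 lay close to that threshold. UHRF1 was within 2-fold without TMM (-0.82) and between the sh-NC libraries (-0.93), and LIG1 between the sh-WDR4-2 libraries (0.95). The calls were kept in all 10 other fits tried for 24 genes, 8 higher and 16 lower. Markers of other cell types differed between the cell lines too, and their part in these differences was not tested. The 4 fibroblast markers summed to 240 and 231 CPM in HCC-LM3 cells, against 132 and 128 CPM in Huh-7 cells. Of these, 3 were called higher and 1 lower (3 and 0 without TMM). COL3A1 had 1209 and 1379 counts in HCC-LM3 cells against 0 and 0 in Huh-7 cells, and PDGFRB, the lower one, 335 and 442 against 467 and 460. The leukocyte marker CD68 was lower, at 374 and 454 against 683 and 955 counts, and the endothelial marker CDH5 higher, at 366 and 467 against 73 and 53. Another endothelial marker, VWF, ran the other way at 2 and 6 against 43 and 66 counts. KDR had 3 and 2 against 0 and 0 counts, and the leukocyte marker LYZ 2 and 0 against 0 and 0. PECAM1, PTPRC and CD3E had 0 counts in all 4 libraries.

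**Figure D4:**
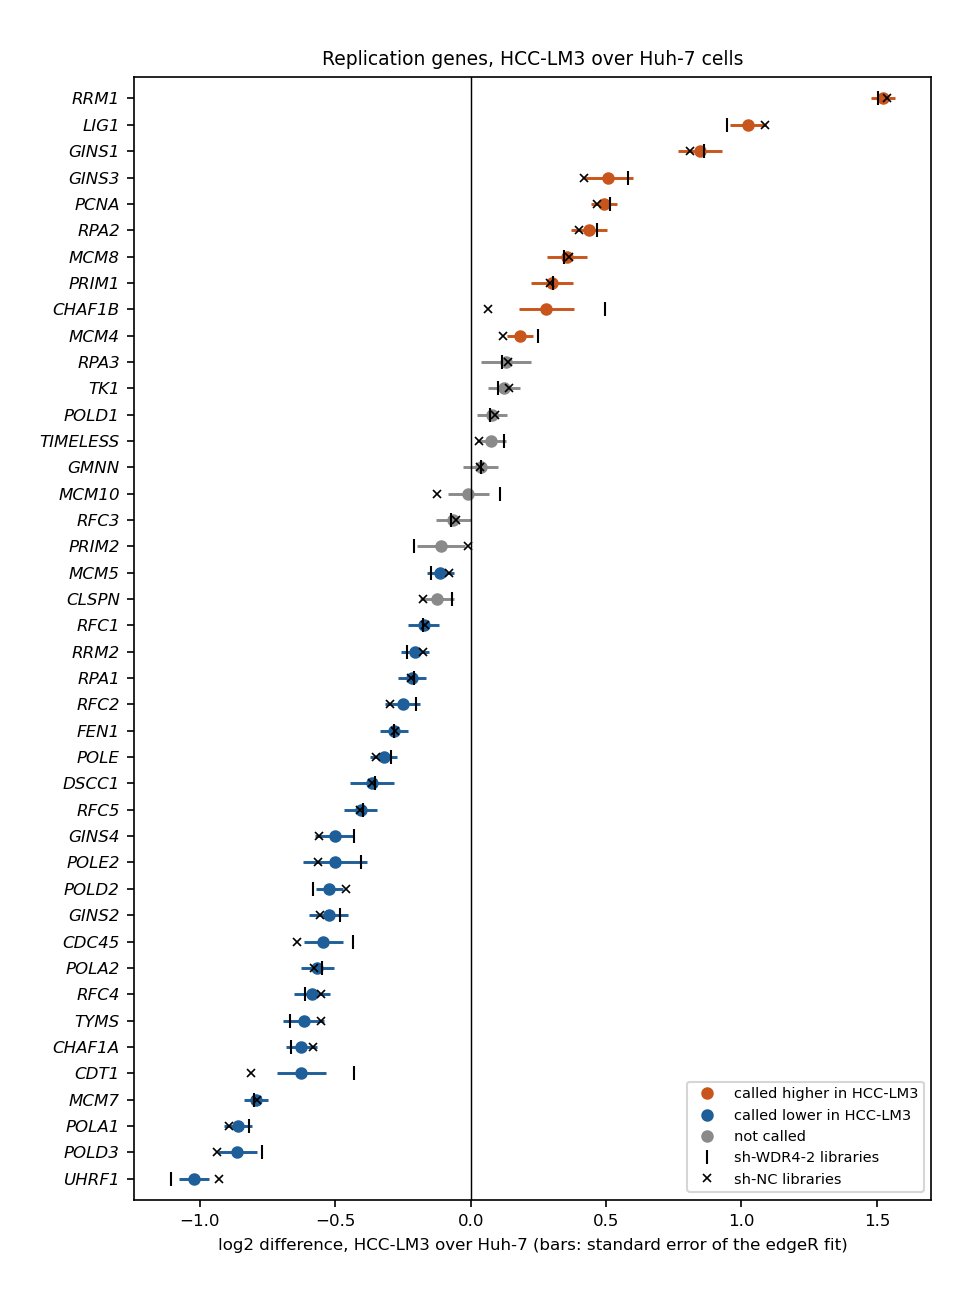
Log2 difference of the 42 genes, HCC-LM3 over Huh-7 cells (x axis), from the edgeR fit (points, bars 1 standard error), coloured by the call at an adjusted p of 0.05, with the difference between the sh-WDR4-2 libraries (upright marks) and between the sh-NC libraries (crosses) beside it. The points run from -1.02 for UHRF1 to 1.52 for RRM1, and both pairs of libraries lie on the same side of 0 for 41 of 42 genes.

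RRM1, on chr11:4094707-4138876 of GRCh38 (plus strand, GENCODE release 29), had 1084 and 1095 CPM in the sh-WDR4-2 and sh-NC libraries of HCC-LM3 cells, against 382 and 377 CPM in those of Huh-7 cells. It was 2.87-fold higher in HCC-LM3 cells, a log2 difference of 1.52 (SE 0.04) with an adjusted p of 2.07e-15. RRM2, its partner in ribonucleotide reductase, was lower in HCC-LM3 cells at -0.21 (SE 0.05), a call that was lost without TMM. The ratio of RRM1 to RRM2 in FPKM was 6.70 and 6.64 in the libraries of HCC-LM3 cells, against 2.01 and 2.02 in those of Huh-7 cells. Without RRM1, the other genes of the set summed to 4723 and 4579 CPM in HCC-LM3 cells, against 5632 and 5550 CPM in Huh-7 cells. TYMS was lower in HCC-LM3 cells at -0.62 (SE 0.08), while TK1 was not called (adjusted p = 0.0686), so the enzymes of dTMP supply differed in their balance, with a TYMS to TK1 ratio in FPKM of 0.355 and 0.381 in HCC-LM3 cells against 0.608 and 0.620 in Huh-7 cells.

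LIG1 (chr19:48115445-48170603, minus strand) had 103 and 109 CPM in the sh-WDR4-2 and sh-NC libraries of HCC-LM3 cells, against 53.3 and 51.0 CPM in those of Huh-7 cells, a log2 difference of 1.02 (SE 0.07) and an adjusted p of 1.14e-10. FEN1, the flap nuclease that works before it, was lower at -0.28 (SE 0.05), a call lost without TMM (-0.0854, adjusted p = 0.129). The ratio of LIG1 to FEN1 in FPKM was 0.379 and 0.407 in HCC-LM3 cells, against 0.161 and 0.157 in Huh-7 cells. PCNA, to which both enzymes bind, was higher in HCC-LM3 cells with 304 and 285 CPM in the sh-WDR4-2 and sh-NC libraries of HCC-LM3 cells, against 213 and 206 CPM in those of Huh-7 cells, a log2 difference of 0.49 (SE 0.05). Of the loader, RFC4 and RFC5 were lower at -0.59 (SE 0.07) and -0.41 (SE 0.06), RFC1 and RFC2 were lower by less, and RFC3 was not called. The FPKM ratio of PCNA to RFC1 was 11.6 and 11.3 in HCC-LM3 cells, against 7.19 and 7.28 in Huh-7 cells.

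The GINS complex split between its subunits. GINS1 (chr20:25407727-25452628, plus strand) had 49.2 and 47.7 CPM in the sh-WDR4-2 and sh-NC libraries of HCC-LM3 cells, against 26.9 and 27.0 CPM in those of Huh-7 cells, a log2 difference of 0.85 (SE 0.08), and GINS3 was higher as well at 0.51 (SE 0.09). GINS2 and GINS4 were lower at -0.52 (SE 0.07) and -0.50 (SE 0.07), and CDC45 at -0.54 (SE 0.07). The FPKM ratio of GINS2 to GINS1 was 2.68 and 2.67 in HCC-LM3 cells, against 6.88 and 6.96 in Huh-7 cells. In the ring, MCM7 was lower at -0.79 (SE 0.04) with 435 and 428 CPM in the sh-WDR4-2 and sh-NC libraries of HCC-LM3 cells, against 759 and 739 CPM in those of Huh-7 cells, while MCM4 was higher at 0.18 (SE 0.05) and MCM5 was lower at -0.11 (SE 0.05) with an adjusted p of 0.0489. MCM8 was higher at 0.36 (SE 0.07), and MCM10 was not called at -0.01 (SE 0.08), positive between the sh-WDR4-2 libraries (0.11) and negative between the sh-NC libraries (-0.13).

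Most DNA polymerase subunits were lower in HCC-LM3 cells. POLA1 (chrX:24693919-24996986, plus strand), the catalytic subunit of polymerase alpha, had 147 and 141 CPM in the sh-WDR4-2 and sh-NC libraries of HCC-LM3 cells, against 259.5 and 262 CPM in those of Huh-7 cells, a log2 difference of -0.86 (SE 0.05). POLA2 was lower at -0.57 (SE 0.06), with 35.1% of its exon bases shared with another annotated coding gene on its strand. The primase subunits did not follow, with PRIM1 higher at 0.30 (SE 0.08), 21.6% of its exon bases being shared with other coding genes, and PRIM2 not called at -0.11 (SE 0.09). In polymerases delta and epsilon, POLD3 had 48.6 and 42.4 CPM in the sh-WDR4-2 and sh-NC libraries of HCC-LM3 cells, against 83.3 and 81.6 CPM in those of Huh-7 cells and a log2 difference of -0.86 (SE 0.07), POLD2, POLE and POLE2 were lower, at -0.32 for POLE to -0.52 for POLD2, and the catalytic POLD1 was not called. RPA1 was lower at -0.22 (SE 0.05), RPA2 higher at 0.44 (SE 0.07) and RPA3 not called. Without TMM the RPA1 call was lost (-0.017, adjusted p = 0.768) and RPA3 was called higher (0.33, adjusted p = 0.00379).

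UHRF1 (chr19:4903080-4962154, plus strand) had 130.4 and 139 CPM in the sh-WDR4-2 and sh-NC libraries of HCC-LM3 cells, against 282 and 266 CPM in those of Huh-7 cells, a log2 difference of -1.02 (SE 0.06) and an adjusted p of 3.75e-11. CHAF1A was lower at -0.63 (SE 0.06) and CDT1 at -0.63 (SE 0.09), with 128 and 109 CPM in the sh-WDR4-2 and sh-NC libraries of HCC-LM3 cells, against 172 and 191 CPM in those of Huh-7 cells, while GMNN was not called. CHAF1B was called higher at 0.28 (SE 0.10), with an adjusted p of 0.0237, but it had 45.4 and 39.5 CPM in the sh-WDR4-2 and sh-NC libraries of HCC-LM3 cells, against 32.1 and 37.8 CPM in those of Huh-7 cells, so that its difference was 0.50 between the sh-WDR4-2 libraries and 0.06 between the sh-NC libraries. With 1 library left out, the cell line was the only term in the edgeR fit, the spread came from the cell line that kept both libraries, and the lone library of the other was assumed to vary like them. The call of CHAF1B was lost without the HCC-LM3 sh-WDR4-2 library (0.18, adjusted p = 0.0825) and without the Huh-7 sh-WDR4-2 library (0.17, adjusted p = 0.223). The last also lost the edgeR calls of MCM4, MCM5 and RFC1, at adjusted p of 0.0545, 0.289 and 0.153. Leaving out Huh-7 sh-NC lost MCM5 (adjusted p = 0.123) and RFC2 (0.0569), and leaving out HCC-LM3 sh-WDR4-2 lost MCM5 (0.0656) and gained TK1 (0.0296) and CLSPN (0.00621). Leaving out HCC-LM3 sh-NC gained TIMELESS (0.0323). CLSPN and TIMELESS were not called with all 4 libraries.

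Promoter windows, from 250 bases before to 50 bases after the gene start (RefSeq, GRCh38.p14), were held for 38 of the 45 genes and not for MCM4, MCM5, GINS4, POLD3, DSCC1, RPA2 and RPA3. They were searched on both strands for TTTCGCGC or TTTGGCGC, of the E2F type, for TTTGAA or TTCGAA, of the CHR type found in late cell cycle promoters, and for CCAAT. E2F-type letters below are these runs alone, and other forms of the site were not searched. E2F-type letters were present in 10 of 38 windows (26.3%), against 1.15% of all 35116 windows of that length. Among the 14510 windows of symbols in the deposited gene table, taken once per symbol like the members, the share was 1.6%. CCAAT was present in 22 (57.9%, against 34.6% of all windows and 36.3% of those of symbols in the gene table). The CHR type was present in 2, MCM6 and RRM1 (5.26%, against 16.4% and 13.2%). The 10 windows with E2F-type letters were those of MCM2, MCM3, MCM6, MCM7, MCM8, GINS1, POLA1, POLA2, POLE and POLE2. Windows go by gene and not by the deposited values, and without MCM2, MCM3 and MCM6 the E2F type stood in 7 of 35 windows (20%) and the CHR type in 1. E2F-type letters stood in 2 of 8 windows of genes called higher in HCC-LM3 cells, in 5 of 19 windows of genes called lower and in 0 of 8 windows of genes not called. Matches are descriptions of letters and not of binding.

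Printed here are the windows of the 3 genes past 2-fold between the cell lines with TMM, UHRF1, LIG1 and RRM1. None of these holds the E2F-type letters searched, and whether they hold other forms of the site was not tested. The windows of MCM7, POLA1 and GINS1 are printed too, picked after their matches were seen. They show the letters searched in genes called lower (MCM7, POLA1) and higher (GINS1) in HCC-LM3 cells. All windows run 5′ to 3′ on the strand of the gene with matches in capitals. They cover chr19:4909251-4909550 (plus strand) for UHRF1, chr19:48170295-48170594 (minus strand) for LIG1, chr11:4094435-4094734 (plus strand) for RRM1, chr7:100101348-100101647 (minus strand) for MCM7, chrX:24693668-24693967 (plus strand) for POLA1 and chr20:25407423-25407722 (plus strand) for GINS1. UHRF1 holds a CCAAT and LIG1 none of the letters searched. In MCM7 the E2F-type run and a CCAAT run on into each other near the gene start and share a base, and ATTGG is CCAAT on the other strand. GCGCCAAA in POLA1 and GINS1 is TTTGGCGC on the other strand. RRM1 has a CHR-type match on the other strand and a CCAAT but none of the E2F-type letters searched in this window.
UHRF1: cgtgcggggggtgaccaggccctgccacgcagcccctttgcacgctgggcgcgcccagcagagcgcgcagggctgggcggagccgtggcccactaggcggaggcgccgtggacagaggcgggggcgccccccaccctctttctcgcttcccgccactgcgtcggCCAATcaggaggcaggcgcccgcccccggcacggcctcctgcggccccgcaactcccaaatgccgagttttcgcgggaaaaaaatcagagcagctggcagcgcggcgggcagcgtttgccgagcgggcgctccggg
LIG1: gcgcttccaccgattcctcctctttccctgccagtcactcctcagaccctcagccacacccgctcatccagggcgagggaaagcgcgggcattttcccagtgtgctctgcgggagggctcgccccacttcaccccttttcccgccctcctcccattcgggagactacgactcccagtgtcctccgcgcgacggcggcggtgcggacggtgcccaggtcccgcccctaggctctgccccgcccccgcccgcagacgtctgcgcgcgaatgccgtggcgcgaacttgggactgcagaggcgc
RRM1: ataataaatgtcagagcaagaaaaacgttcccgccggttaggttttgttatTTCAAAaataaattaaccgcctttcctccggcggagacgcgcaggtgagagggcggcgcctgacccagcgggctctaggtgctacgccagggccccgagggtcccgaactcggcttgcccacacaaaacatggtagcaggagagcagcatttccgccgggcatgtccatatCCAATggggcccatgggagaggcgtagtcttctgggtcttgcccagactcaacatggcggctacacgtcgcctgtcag
MCM7: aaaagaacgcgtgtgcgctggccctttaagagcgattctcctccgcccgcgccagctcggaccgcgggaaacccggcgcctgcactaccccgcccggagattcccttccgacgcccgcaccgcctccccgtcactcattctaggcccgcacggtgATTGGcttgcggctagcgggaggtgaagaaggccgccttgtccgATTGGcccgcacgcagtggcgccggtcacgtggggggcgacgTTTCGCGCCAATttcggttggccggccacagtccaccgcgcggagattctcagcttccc
POLA1: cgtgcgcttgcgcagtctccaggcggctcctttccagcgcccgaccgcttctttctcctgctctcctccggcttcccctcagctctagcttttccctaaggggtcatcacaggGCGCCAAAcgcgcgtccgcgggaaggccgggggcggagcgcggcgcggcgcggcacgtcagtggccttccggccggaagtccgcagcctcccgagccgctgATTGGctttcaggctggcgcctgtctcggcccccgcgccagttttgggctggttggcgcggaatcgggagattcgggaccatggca
GINS1: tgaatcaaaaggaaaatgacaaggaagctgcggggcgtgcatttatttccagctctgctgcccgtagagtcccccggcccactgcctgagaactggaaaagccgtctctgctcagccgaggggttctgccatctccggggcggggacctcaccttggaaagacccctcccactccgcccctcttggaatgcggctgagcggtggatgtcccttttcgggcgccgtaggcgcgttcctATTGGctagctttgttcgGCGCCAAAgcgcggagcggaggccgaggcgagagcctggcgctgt

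Among genes of the same pathways outside the set, 0 genes of any list lay past 2-fold between the hairpins in either cell line and 0 were called in the common test. The counts of intervals that follow stand beside 20.6% above and 21.5% below 0 for all genes in HCC-LM3 cells, and 15.0% and 15.1% in Huh-7 cells. For origin recognition, licensing and firing, 2 of 13 measured genes had intervals above 0 and 0 below in HCC-LM3 cells, the median being 0.01 on the log2 scale, and 2 were above and 1 below in Huh-7 cells, with a median of 0.01. ORC1 to ORC6 stood out of order and were left aside, and the symbol ORC4 is also listed more than once. POLE4, CDC25A, E2F4 and CDKN1A of the other lists stood out of order too and were left aside. CDC6, which loads the ring with CDT1, had 3781 counts with sh-WDR4-2 against 4859 counts with sh-NC in HCC-LM3 cells and 5556 against 5467 counts in Huh-7 cells, and intervals above 0 in both (0.02 to 0.14 and 0.07 to 0.18). Of 15 genes for polymerase subunits, primer removal and clamp unloading, 4 were above and 5 below in HCC-LM3 cells and 2 above and 3 below in Huh-7 cells. RPAIN, which carries RPA into the nucleus, was lower in both at -0.14 and -0.18.

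Of 13 genes of histone supply and chromatin assembly, 6 had intervals above 0 and 1 below in HCC-LM3 cells and 5 above and 1 below in Huh-7 cells, with HAT1, a histone acetyltransferase, at 0.17 and 0.10. Of 13 checkpoint genes, 2 were above and 1 below in HCC-LM3 cells and 4 above and 1 below in Huh-7 cells, with WEE1, the kinase that restrains CDK1, at -0.04 and -0.19. Other genes of deoxynucleotide and pyrimidine synthesis had 2 of 22 above, 4 below and a median of -0.03 in HCC-LM3 cells, and 3 above, 2 below and a median of -0.01 in Huh-7 cells. NUDT1, which clears oxidised nucleotides, was lower in both at -0.29 and -0.16. Of 14 purine synthesis genes, 5 were above and 4 below in HCC-LM3 cells and 3 above and 1 below in Huh-7 cells, and PAICS had 0.27 and 0.07. Among 22 E2F and RB family genes with their cyclins, 8 were above and 0 below in HCC-LM3 cells with a median of 0.07, and 5 above and 5 below in Huh-7 cells with a median of -0.01. E2F8, a repressor of the family, had 545 counts with sh-WDR4-2 against 560 counts with sh-NC in HCC-LM3 cells, from the smaller library, and 687 against 629 counts in Huh-7 cells, log2 fold changes of 0.39 (0.23 to 0.58) and 0.22 (0.07 to 0.39).

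Between the cell lines 38.9% of all genes were called higher in HCC-LM3 cells and 38.9% lower, and 49.5% and 29.3% without TMM. Of the E2F and RB family genes, 17 of 22 were lower in HCC-LM3 cells and 1 higher, with CCNE1, the cyclin that drives S phase entry, at -1.92 (SE 0.10, adjusted p = 4.75e-12) and E2F1 at -1.52 (SE 0.07). Of the origin genes 9 of 13 were lower and 3 higher, and of the polymerase and primer genes 11 of 15 lower and 3 higher, with DNA2 at -0.85 (SE 0.08) and, among origin genes, MCM9 higher at 1.23 (SE 0.11). Histone supply genes had 4 higher and 6 lower of 13, among them TONSL at -1.23 (SE 0.06). Checkpoint genes had 7 of 13 higher and 4 lower, with WEE1 lower at -1.13 (SE 0.06). Deoxynucleotide and pyrimidine genes had 5 higher and 10 lower of 22, with TYMP, the thymidine phosphorylase, lowest at -2.92 (SE 0.12). Purine genes had 7 higher and 6 lower of 14, with IMPDH1, of guanine nucleotide synthesis, at -1.14 (SE 0.06). Without TMM the E2F and RB family had 1 higher and 11 lower, the origin genes 4 higher and 7 lower, the polymerase and primer genes 4 higher and 9 lower and the histone supply genes 7 higher and 5 lower. The checkpoint genes then had 8 higher and 3 lower, the deoxynucleotide and pyrimidine genes 8 higher and 3 lower and the purine genes 8 higher and 5 lower.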

How the data were processed

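RNA-seq was analysed from 4 libraries, 1 per cell line and hairpin. The authors deposited raw counts and FPKM per gene symbol in 1 table. The deposited FPKM equal count over a whole-number gene length and library total, with no TMM scaling. Bowtie 0.12.2, mm8 and mm9 (mouse builds) stand in the processing notes of the submitters with no role. For the counter, human build and strand setting, nothing is given in the sources used. The study names edgeR with an absolute log2 fold change over 1.

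The 45 members and the other gene lists were chosen with earlier results of these data known. Genes were named by a rule: members in doubt or called, the largest folds and cell-line differences, the highest and lowest FPKM per role, and up to 3 genes per other list. CDC6 and E2F1 were named after their values were seen. Counts were scaled by TMM (factors 1.07, 1.07, 0.933 and 0.934, in the order HCC-LM3 sh-WDR4-2, HCC-LM3 sh-NC, Huh-7 sh-WDR4-2, Huh-7 sh-NC) with edgeR 4.0.16 in R 4.3.3, and genes averaging 1 CPM or more were used. Within a cell line, log2 fold changes of CPM with 0.5 added were given with exact conditional binomial 95% intervals on the counts, and no test. The common effect (hairpin, with cell line as a block) and the cell-line difference were tested on the counts of all genes with edgeR's robust quasi-likelihood test, with Benjamini-Hochberg adjustment, and DESeq2 1.42.0 as an alternative. A fold needed more than 3 counts in a library. Other steps used scipy 1.17.1, pandas 2.3.3 and numpy 2.4.6 in Python 3.11.15. The fits were tested on simulated data. Gene positions and transcript lengths came from GENCODE release 29, promoters from RefSeq (GRCh38.p14). Alternatives were other size factors, filters and pseudocounts, a 1.5-fold threshold, the block left out, each library left out, and symbols in doubt left out or returned. The hairpin's sequence is not shown.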

Additional observations from a re-analysis of the deposited data

Results flagged for a closer look

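Under the same contrast, sh-WDR4-2 over sh-NC, 4 genes lay on opposite sides of 0 in the cell lines with counting intervals that excluded 0 in both. The log2 fold change of CDT1 was 0.23 in HCC-LM3 cells and -0.15 in Huh-7 cells. That of POLD2 was -0.0722 and 0.05, that of CHAF1B was 0.20 and -0.23, and that of UHRF1 was -0.0942 and 0.08, HCC-LM3 before Huh-7 in each. With 1 library per group no test compared the cell lines' responses, and 6.02% of the 11537 genes measured in both cell lines show the same pattern.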

How the results depend on the processing

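The hairpin results kept their side of the threshold under every alternative run. No member passed 2-fold or 1.5-fold within a cell line, and none was called in the common test, with DESeq2 size factors, no TMM factors, another filter, another pseudocount, DESeq2, the block left out, or symbols returned by the order of the table. The block was the cell line in the common test and the hairpin label in the cell-line fit, where leaving it out gave 10 higher and 23 lower, as with it. Replicate numbers pair no libraries, since each group holds 1.

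Without TMM factors, 16 genes were called higher in HCC-LM3 cells in place of 10, and 16 lower in place of 23, and the median difference was 0.00908 in place of -0.19. The same setting turned MCM10 to 0.19, PRIM2 to 0.0887, RFC3 to 0.13 and CLSPN to 0.0749, and among called genes MCM5 to 0.09 and RFC1 to 0.03. These turns came by construction, since all genes shift by 0.20. The DESeq2 test gave a median of -0.17, called 9 higher and 21 lower, lost CHAF1B (0.30, adjusted p = 0.11), MCM5 and RFC1, and put MCM10 at 0.0126. Leaving out 1 library at a time, 8 to 11 genes were higher, 21 to 23 lower, and the median ran from -0.21 to -0.17. MCM10 then ran from -0.15 to 0.13 and CHAF1B from 0.17 to 0.40. The causes of the last changes were not tested. Counting intervals had a median width of 0.15 on the log2 scale in each cell line, and differences whose interval spans 0 were not detectable at this depth, and the spread between cultures is unknown.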
